A study of Mus musculus with 23 samples.

Results

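The miR-26 and miR-101 families were followed through 4 mature microRNAs, miR-26a-5p (MIMAT0000533), miR-26b-5p (MIMAT0000534), miR-101a-3p (MIMAT0000133) and miR-101b-3p (MIMAT0000616), of the 602 microRNA probes of a NanoString nCounter mouse panel. They were chosen as known repressors of Ezh2, by identifier, and all 4 were on the panel and among the 302 probes that passed the background filter. The panel counts barcoded probes without amplification. Type II pneumocytes (AT2, 13 samples, sorted on CD326 by their descriptions) and endothelial cells (EC, 10 samples, sorted on CD31) had been taken from lungs of C57BL6 mice of wild-type genotype. The 6 stages were E16.5 and E18.5 (embryonic day) followed by P1, P7, P14 and P28 (postnatal day). AT2 had 2 samples a stage and 3 at P28, and EC had 2 samples a stage and 1 each at E18.5 and P1. CD326 (EpCAM) is carried by lung epithelial cells in general, and the labels call the sorted cells type II pneumocytes at every stage, also before birth. No table used here pairs the panel's identifiers with names, so the endothelial, epithelial and other cell type markers were not analysed, and neither were the opposite arms or other microRNAs reported to repress Ezh2.

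MicroRNAs are short RNAs that guide Argonaute proteins to complementary sites in messenger RNAs, mainly through the seed near their 5′ end, and lower the output of those messengers. Ezh2 is the catalytic subunit of Polycomb repressive complex 2, which methylates histone H3 on lysine and keeps developmental genes silent. Its messenger RNA carries sites for both miR-26 and miR-101, and in many tissues Ezh2 is high in dividing progenitor cells and low in differentiated cells. Ezh2 itself was not analysed here.

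The mature sequences, taken from RefSeq (GRCm38.p6) by name for 4 of 4 members, are shown because the families are defined by their seeds. Capitals mark the seed, bases 2 to 8 from the 5′ end.
miR-26a-5p: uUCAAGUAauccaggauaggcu
miR-26b-5p: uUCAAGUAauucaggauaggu
miR-101a-3p: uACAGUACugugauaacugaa
miR-101b-3p: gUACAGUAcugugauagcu
The miR-26 members share 1 seed and differ by C11U and C21U, counted from the 5′ end of miR-26a-5p, with 19 of 21 aligned bases identical. As RefSeq lists it, miR-101b-3p begins 1 base earlier than miR-101a-3p, so that its bases 2 to 8 read UACAGUA where miR-101a-3p has ACAGUAC. Of the 18 bases that align, 17 are identical and 1 differs, A16G counted from the 5′ end of miR-101a-3p. Among 1679 mature names in the same RefSeq table no other carries either miR-101 seed, and 2 carry the miR-26 seed, both members. How well the panel's probes tell such close sequences apart was not measured here.

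miR-26a-5p is made from a pair of hairpins on different chromosomes, which give the same mature sequence, so its signal sums over both. They are shown with the mature arm in capitals.
Mir26a-1: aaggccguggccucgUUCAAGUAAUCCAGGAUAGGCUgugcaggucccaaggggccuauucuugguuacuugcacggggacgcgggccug
Mir26a-2: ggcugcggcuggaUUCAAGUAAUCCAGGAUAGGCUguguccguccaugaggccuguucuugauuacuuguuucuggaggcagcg
On GRCm38.p6 the mature sequence lies at chr9:119031811-119031832 (plus strand) within the protein-coding gene Ctdspl, and at chr10:126995543-126995564 (plus strand) within Ctdsp2. miR-26b-5p lies at chr1:74394324-74394344 (plus strand) within Ctdsp1. All 3 host genes encode small C-terminal domain phosphatases. miR-101a-3p lies at chr4:101346957-101346977 (minus strand) within the long non-coding gene E130102H24Rik, and miR-101b-3p at chr19:29135338-29135356 (plus strand) within Rcl1, a gene of ribosomal RNA processing.

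The values are counts that had been multiplied by 1 factor per sample, and are called scaled signal here. Recovered microRNA counts ran from 26640 to 559365 in AT2 samples and from 36373 to 571706 in EC samples. For each sample a background limit was set at the mean plus 2 SD of 8 low control rows, and it lay between 6.16 and 57.2 scaled signal in AT2 samples and between 14.4 and 95.1 in EC samples. A sample multiplied by a larger factor has its background raised with it. EC E18.5 replicate 1, the only EC sample of its stage, had the highest limit and few counts, 6 for miR-26a-5p, 14 for miR-26b-5p, 2 for miR-101a-3p and 27 for miR-101b-3p. AT2 P28 replicate 1 had the fewest counts of all samples and a limit of 1 count, with 21, 65, 8 and 10 counts for the members in the same order. Separate animals are not stated for the samples, and the p-values cover only the variation among these samples, part of which may be technical. In sorted bulk RNA a shift in the cells collected and a shift in RNA per cell cannot be told apart.

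**Figure D1:**
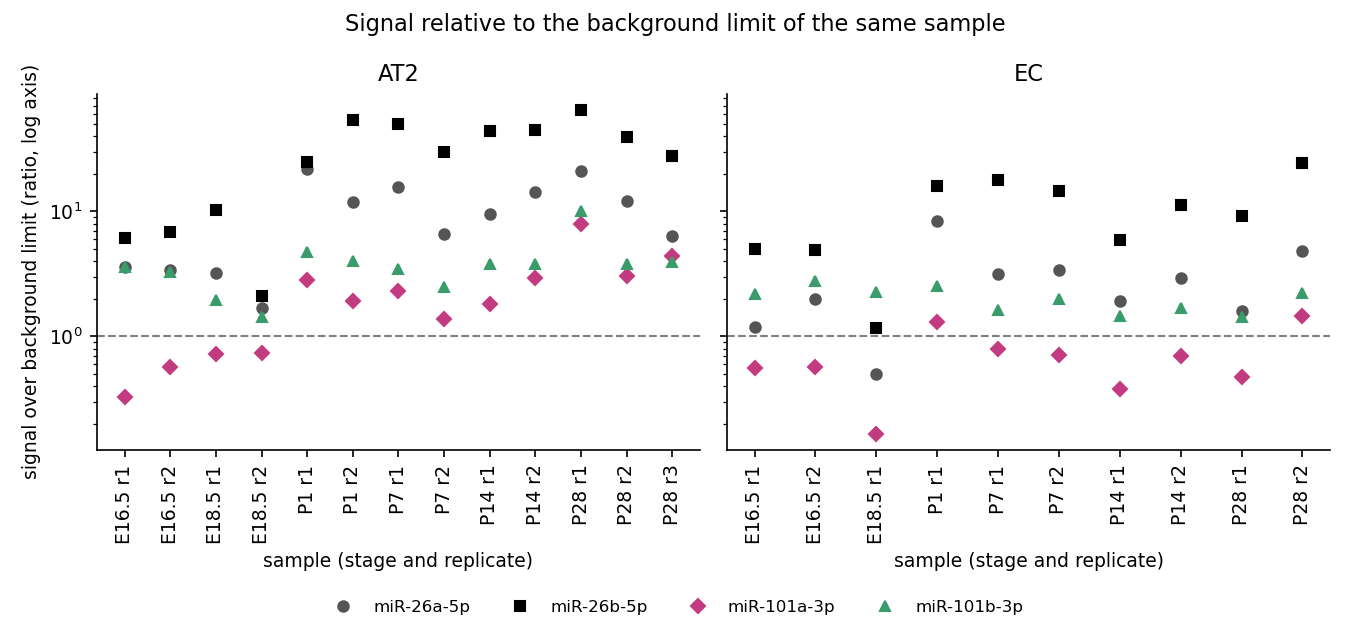
Signal of each member divided by the background limit of the same sample (log axis), by sample, AT2 at the left and EC at the right, with the dashed line at 1. miR-26b-5p and miR-101b-3p lie above the line in all 23 samples, and miR-101a-3p lies below it in all 4 embryonic AT2 samples and in 8 of 10 EC samples.

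miR-26b-5p was above its limit in all 23 samples, miR-101b-3p in all 23, and miR-26a-5p in all except EC E18.5 replicate 1. miR-101a-3p was above it in 0 of 4 embryonic AT2 samples, 9 of 9 postnatal AT2 samples and 2 of 10 EC samples, those of P1 replicate 1 and P28 replicate 2. Where miR-101a-3p was below the limit, its level is known only to lie under that limit. In AT2 P28 replicate 1 the control rows had a mean of 1 count and no spread, so any count above 1 passed. Its 8 counts of miR-101a-3p passed there, while 8 counts in AT2 E16.5 replicate 1 were below that sample's limit.

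miR-26b-5p was higher at the late stages (P7, P14 and P28) than at the early ones (E16.5 and E18.5) in both cell types. In AT2 cells it measured 107 and 112.1 scaled signal for E16.5, 159 and 121 at E18.5, 192 and 346 at P1, 308 and 248 at P7, 633 and 372 at P14, and 483, 611 and 574 at P28. In EC it measured 244 and 194 for E16.5, 111 at E18.5, 231 at P1, 392 and 409 at P7, 414 and 364 at P14, and 598 and 642 at P28. In each cell type every late sample lay above every early one, and 1 of the 2 AT2 P1 samples lay within the late range. The order of the AT2 geometric means was E16.5, E18.5, P1, P7, P14, P28, with samples of P1 and P7 overlapping and samples of P14 and P28 overlapping. In EC the lowest was E18.5, followed by E16.5, P1, P14, P7 and P28, where P1 lay within the E16.5 range and P14 and P7 overlapped.

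The late samples exceeded the early ones by 1.76 ± 0.23 on the log2 scale in AT2 cells (SE, limma, 7 late and 4 early samples, 3.39-fold, adjusted p = 4.18e-06). In EC the difference was 1.55 ± 0.26 (SE, 6 late and 3 early samples, 2.93-fold, limma adjusted p = 0.000224). These fits use log2(value + 1), which understates changes of low signals, and adjust over all 302 tested probes with a threshold of 0.05. With a median shift the differences were larger, at 2.64 in AT2 cells (6.25-fold) and 2.16 in EC (4.46-fold), and with total scaling they were 1.601 and 1.47. miR-26b-5p was the 1 member of 4 whose late samples all exceeded its early ones, in AT2 cells against 7.28% of all tested probes and in EC against 6.95%.

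miR-26a-5p, which shares the seed, was also higher late in AT2 cells. In AT2 cells it measured 62.6 and 55.3 scaled signal for E16.5, 50.02 and 96.6 at E18.5, 171 and 75.9 at P1, 96.7 and 54.0 at P7, 139 and 120.2 at P14, and 156, 188 and 130.0 at P28. In EC it measured 58.0 and 77.7 for E16.5, 47.6 at E18.5, 121 at P1, 69.4 and 95.7 at P7, 134 and 94.95 at P14, and 104 and 127 at P28. Early and late samples overlapped in both cell types, and the AT2 geometric means ran from high to low in the order P28, P14, P1, P7, E18.5 and E16.5. In EC the order from high to low was P1, P28, P14, P7, E16.5 and E18.5, and each of the first 4 overlapped the next in that order, where P1 is 1 sample.

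The late minus early difference of miR-26a-5p was 0.82 ± 0.28 on the log2 scale in AT2 cells (SE, 1.76-fold, limma adjusted p = 0.024). It was 0.84 ± 0.33 in EC (SE, 1.79-fold, limma adjusted p = 0.0532), which did not pass the threshold. The AT2 calls of miR-26a-5p and miR-101a-3p were lost with values scaled to each sample's microRNA total, at 0.66 (limma adjusted p = 0.206) and 0.91 (adjusted p = 0.0719), and with a median shift they were larger, at 1.70 and 1.93. That of miR-26a-5p was also lost without AT2 E18.5 replicate 1 (0.58, limma adjusted p = 0.127), AT2 E16.5 replicate 2 (0.77, adjusted p = 0.0744) or AT2 P7 replicate 1 (0.68, adjusted p = 0.0772). The EC difference passed in 5 of the 23 fits that left out 1 sample, and with the samples shifted to a common median it was 1.45 (limma adjusted p = 0.00184).

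**Figure D2:**
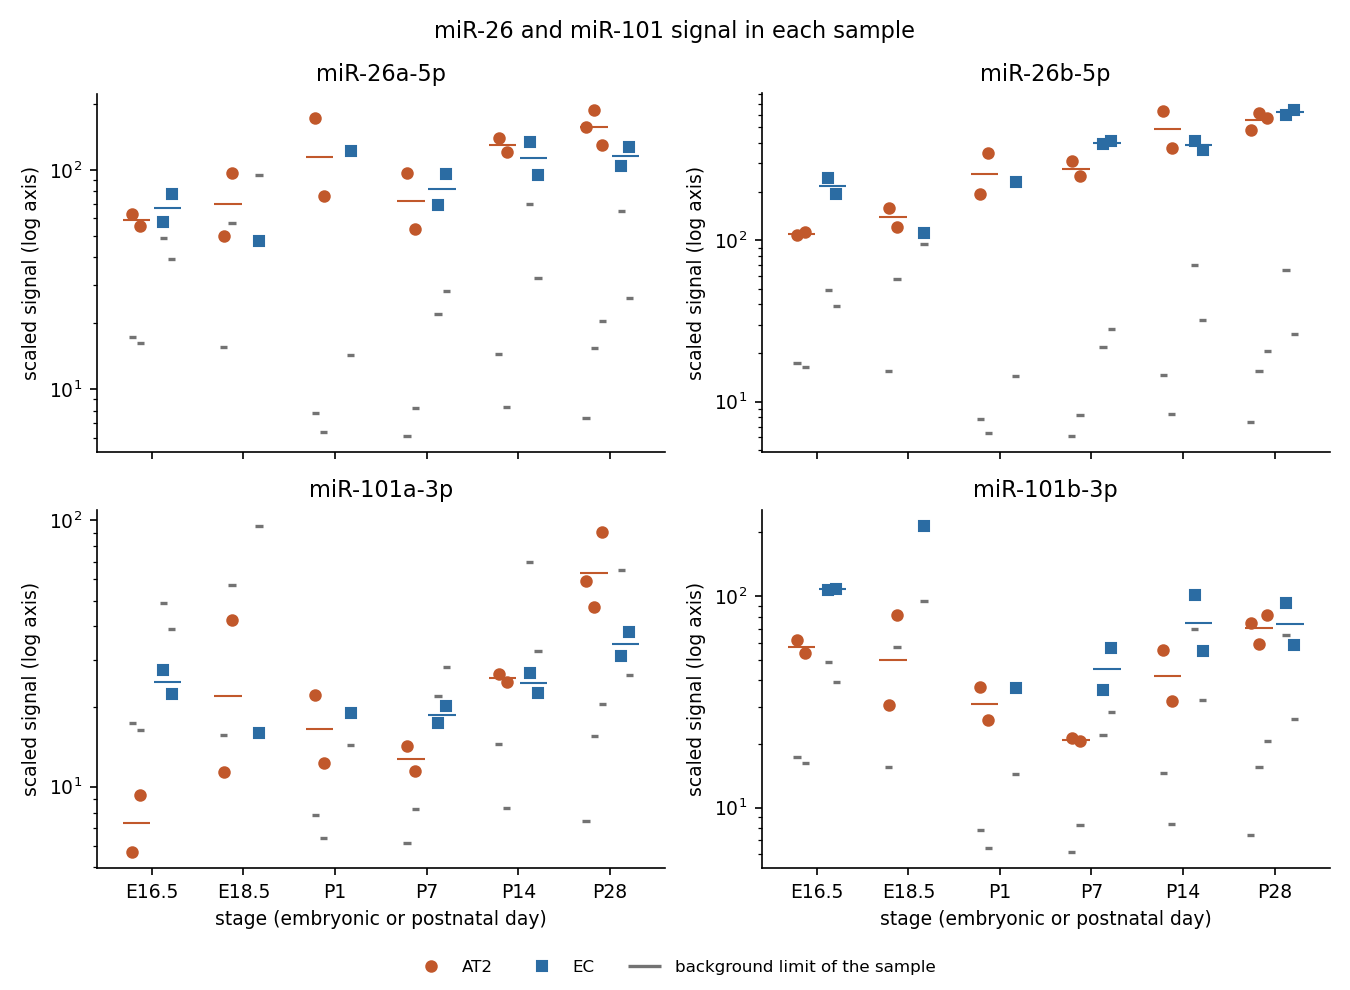
Scaled signal (log axis) of each member by stage, with AT2 samples as circles at the left of each stage and EC samples as squares at the right, geometric means as coloured lines where a stage has more than 1 sample, and each sample's background limit as a grey dash. miR-26b-5p climbs to between 483 and 611 in AT2 P28 samples, against 107 and 112.1 at E16.5, while miR-101b-3p is lowest at P7 in AT2 cells, at 21.3 and 20.6.

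miR-101a-3p was below each sample's own background limit before birth in AT2 cells and above it afterwards, but the limits differed too. It measured 5.69 and 9.34 scaled signal for E16.5, 11.4 and 42.1 at E18.5, 22.0 and 12.3 at P1, 14.2 and 11.4 at P7, 26.6 and 24.6 at P14, and 59.5, 47.3 and 90.6 at P28 in AT2 cells. In EC it measured 27.5 and 22.2 for E16.5, 15.85 at E18.5, 18.9 at P1, 17.4 and 20.0 at P7, 26.8 and 22.5 at P14, and 30.9 and 38.0 at P28. The 3 AT2 P28 samples were the highest of all AT2 samples, and the 2 of E16.5 were the lowest. The 42.1 at E18.5 belongs to AT2 E18.5 replicate 2, whose limit was 57.2.

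Late minus early, miR-101a-3p differed by 1.05 ± 0.33 on the log2 scale in AT2 cells (SE, limma adjusted p = 0.0151) and by 0.32 ± 0.39 in EC (SE, limma adjusted p = 0.508). With each early AT2 sample set to its own limit, the geometric mean of the 7 late samples was at least 1.38 times that of the 4 early ones. The late values still contain background, so the bound is on signal and not strictly on expression. This bound weights each sample equally, and 3 of the late samples are from P28, where the fitted differences weight each stage equally. Computed in the same way, the bound for AT2 P28 over the 4 embryonic AT2 samples was at least 2.83-fold. That P28 group includes AT2 P28 replicate 1, with 8 counts of miR-101a-3p. With all values below a sample's limit raised to it, a setting chosen after seeing the data, the AT2 difference was 0.28 and the call was lost (limma adjusted p = 0.482). Without AT2 E18.5 replicate 1 it was 0.60 (limma adjusted p = 0.122), and without AT2 E16.5 replicate 1 it was 0.89 (limma adjusted p = 0.0726).

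miR-101b-3p passed as higher at the late stages in neither cell type, and as lower in EC. In AT2 cells it measured 61.9 and 53.7 scaled signal for E16.5, 30.7 and 81.8 at E18.5, 37.1 and 25.8 at P1, 21.3 and 20.6 at P7, 55.6 and 31.8 at P14, and 74.3, 59.3 and 81.1 at P28. In EC it measured 107 and 108 for E16.5, 214 at E18.5, 36.6 at P1, 35.9 and 56.6 at P7, 100.9 and 54.7 at P14, and 92.6 and 58.6 at P28. Both AT2 P7 samples lay below all other AT2 samples, and the lowest EC geometric mean was that of P1. In AT2 cells the order from low to high was P7, P1, P14, E18.5, E16.5 and P28, and the range of E18.5 overlapped those of E16.5, P1, P14 and P28.

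Late minus early, miR-101b-3p differed by -0.42 ± 0.30 on the log2 scale in AT2 cells (SE, limma adjusted p = 0.239), a difference that turned positive with a median shift, quantile scaling or edgeR and passed without AT2 E18.5 replicate 1 (-0.77, limma adjusted p = 0.0461). The 3 early EC samples all lay above the 6 late ones, and the share of all tested probes that separate this way was not counted. In EC miR-101b-3p fell by 1.26 ± 0.35 on the log2 scale (SE, 2.40-fold lower late, limma adjusted p = 0.0124), where 27.8% of all tested probes passed as lower. That call was lost with a median shift (-0.66, limma adjusted p = 0.102) and with edgeR (-0.72, adjusted p = 0.0905). It was also lost without EC E18.5 replicate 1, which leaves E16.5 as the early EC stage (-0.77, limma adjusted p = 0.168).

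In AT2 cells 3 of the 4 members passed as higher late, where 11.3% of all tested probes did. For miR-101a-3p, 1 of the 3, every early AT2 value lay under its sample's limit, so the early level was not measured. With values below a limit raised to it, a setting chosen after seeing the data, its call was lost (0.28, limma adjusted p = 0.482). In AT2 cells 0 members passed as lower (also 0 at an unadjusted p under 0.05 in limma and 0 by edgeR), where 40.1% of all tested probes did. In EC 1 member passed as higher, where 9.27% of all tested probes did, and 1 as lower, where 27.8% did. The median late minus early difference of all tested probes was -0.64 in AT2 cells and -0.57 in EC. Whether the change differed between the cell types was tested directly. AT2 minus EC of the late minus early differences was -0.02 ± 0.43 for miR-26a-5p, 0.21 ± 0.35 for miR-26b-5p, 0.72 ± 0.51 for miR-101a-3p and 0.84 ± 0.46 for miR-101b-3p (SE, log2). None of the 4 passed (the lowest limma adjusted p was 0.393, for miR-101b-3p, and 0 of 4 had an unadjusted p under 0.05), where 6.29% of all tested probes did. Under quantile scaling miR-101b-3p did, at 1.45 (limma adjusted p = 0.0266).

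Differences anywhere among the 6 stages were sought with limma's F-test in each cell type. In AT2 cells all 4 members passed, with limma adjusted p = 6.24e-05 for miR-26b-5p, 0.00101 for miR-101a-3p, 0.0361 for miR-101b-3p and 0.0427 for miR-26a-5p, where 49% of all tested probes did. The AT2 calls were lost in 14 of the 23 fits that left out 1 sample for miR-26a-5p and in 7 for miR-101b-3p. In EC miR-26b-5p (limma adjusted p = 0.00341) and miR-101b-3p (0.0427) passed, miR-26a-5p (0.252) and miR-101a-3p (0.629) did not, and 27.2% of all tested probes did. The EC call of miR-101b-3p was lost in 10 of those 23 fits. Of the 5 steps from a stage to the next, 0 of 20 member steps passed in limma in AT2 cells, where 2.38% of all steps did, and 0 of 20 in EC, where 0.861% did. At an unadjusted p under 0.05 there were 4 in AT2 cells and 2 in EC, and edgeR called 2 in AT2 cells and 0 in EC. The shares of all tested probes' steps at these 2 settings were not counted, so these counts cannot be judged against them. The member step with the lowest adjusted p was that of miR-101b-3p in EC between E18.5 and P1, at -2.51 ± 0.68 (SE, log2, limma adjusted p = 0.0656), which rests on 1 sample per stage.

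Between the cell types, averaged over the 6 stages, miR-101b-3p was lower in AT2 cells and the other members did not pass the test. The difference of miR-101b-3p was -0.85 ± 0.21 on the log2 scale (SE, limma adjusted p = 0.0016, 1.81-fold lower in AT2 cells), where the median of all tested probes was -0.43. It was 0.12 ± 0.20 for miR-26a-5p (limma adjusted p = 0.589, 95% interval -0.29 to 0.53), which passed at 0.47 with a median shift (limma adjusted p = 0.0298). It was -0.15 ± 0.16 for miR-26b-5p (limma adjusted p = 0.423, 95% interval -0.48 to 0.18) and -0.16 ± 0.23 for miR-101a-3p (limma adjusted p = 0.547, 95% interval -0.64 to 0.32). The signs of both turned with a median shift, total scaling or edgeR, and with some settings they passed. miR-26b-5p passed as higher in AT2 cells with total scaling (0.65, limma adjusted p = 0.0325). miR-101a-3p passed as higher with quantile scaling (0.55, limma adjusted p = 0.0222) and with background subtracted (1.21, adjusted p = 0.0342), and as lower with each sample's limit as a floor (-0.76, adjusted p = 0.00819). It was above background in 9 of 13 AT2 and 2 of 10 EC samples, so its interval and these calls rest mostly on EC values under background. With the floor, those EC values are the limits themselves. Thus 1 of 4 members passed, where 67.2% of all tested probes did. The call of miR-101b-3p was lost with values scaled to each sample's microRNA total, at -0.07 (limma adjusted p = 0.842).

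At the early stages the 4 AT2 samples measured 30.7 to 81.8 scaled signal of miR-101b-3p and the 3 EC samples 107 to 214. The difference was -1.48 ± 0.38 (SE, log2, limma adjusted p = 0.00563), and with total scaling it was -0.54 (limma adjusted p = 0.452). Leaving out EC E18.5 replicate 1 removes E18.5 from both cell types, and the E16.5 samples alone gave -0.89 (limma adjusted p = 0.145). The other 3 members did not pass at the early stages, where 44.7% of all tested probes did. At E16.5 alone miR-26b-5p passed (-0.98, limma adjusted p = 0.0408). All early values of miR-101a-3p were below background, with limits higher in EC than in AT2 cells at E16.5, so its early differences between the cell types compare values under background. At the late stages 7 AT2 samples ran from 20.6 to 81.1 (median 55.6) and 6 EC samples from 35.9 to 100.9 (median 57.6). The difference of -0.64 ± 0.27 (SE, log2) passed at a limma adjusted p of 0.0447 and was lost in 12 of the 23 fits that left out 1 sample. It was also lost with a median shift (-0.17), quantile scaling (-0.19), edgeR (-0.24) or background subtracted (-0.38), and turned to 0.21 with total scaling. The other 3 members did not pass there either, and 63.2% of all tested probes did.

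**Figure D3:**
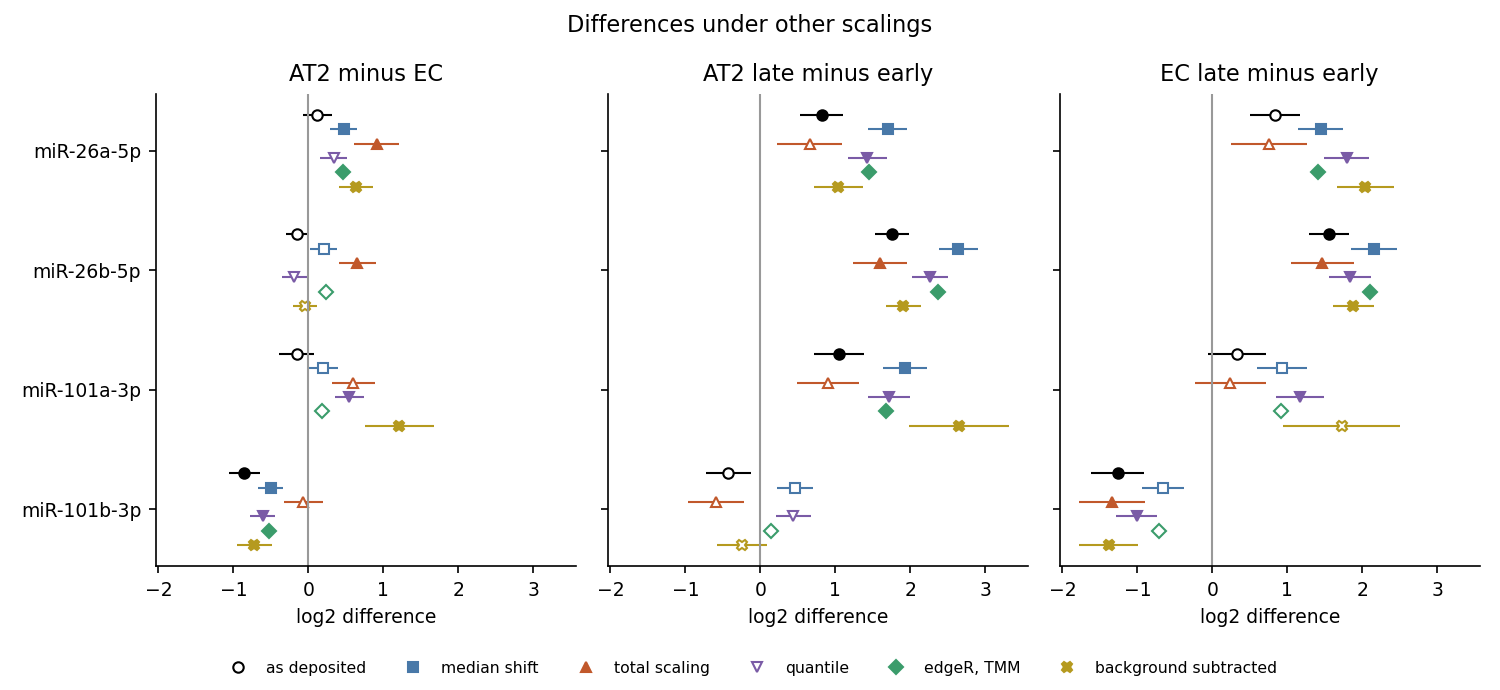
Log2 differences of each member for AT2 minus EC (left), late minus early in AT2 cells (middle) and late minus early in EC (right), as deposited and under 5 other treatments, with SE bars where the fit gives one and filled symbols for adjusted p under 0.05. miR-26b-5p lies right of 0 with filled symbols throughout the middle and right panels, and the AT2 minus EC values of miR-26b-5p and miR-101a-3p lie on both sides of 0.

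Ratios of a pair of members within a sample do not depend on the sample's factor. Each is a ratio of the signals of 2 probes with unknown efficiencies, so only its change between samples is read. Over 9 such tests, adjusted together, miR-26b-5p over miR-26a-5p ran from 3.09 to 4.602 in late AT2 samples (median 3.26) and from 1.26 to 3.18 in early ones (median 1.87). The log2 difference was 0.93 (exact permutation test, two-sided, p = 0.00909, adjusted p = 0.0357), and the call was lost without AT2 E16.5 replicate 1, AT2 E16.5 replicate 2 or AT2 E18.5 replicate 2. The differences were then 0.875, 0.955 and 0.725, and with fewer early samples the lowest p that the test can give is higher. In EC the ratio ran from 3.09 to 5.74 late and from 2.33 to 4.21 early, a log2 difference of 0.63 (exact permutation test, p = 0.0476, adjusted p = 0.0857). The early EC samples had only 6 to 28 counts of miR-26a-5p, above background in 2 of 3. With background subtracted the EC difference was -0.0923. Between cell types, within the 9 sample IDs that both carry, the log2 difference was -0.38 ± 0.59 (SD, n = 9), and 3 of 9 were higher in AT2 cells (two-sided exact sign-flip permutation test, p = 0.0898, adjusted p = 0.135). With background subtracted it was -0.75 and passed (the same test, adjusted p = 0.0281).

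miR-101b-3p over miR-101a-3p ran from 0.895 to 2.10 in late AT2 samples (median 1.29) and from 1.94 to 10.9 in early ones (median 4.22). The log2 difference was -1.61 (exact permutation test, p = 0.00606, adjusted p = 0.0357, lost in 3 of the 23 repeats that left out 1 sample), and 6 of 7 late samples lay below every early one. Those 3 repeats each left out an early AT2 sample, which raises the lowest p that the test can give. Their differences were -1.16, -1.46 and -1.99. In EC the ratio ran from 1.54 to 3.77 late and from 3.89 to 13.5 early, with no overlap, a log2 difference of -1.34 (exact permutation test, adjusted p = 0.0357, from p = 0.0119, the lowest that 6 and 3 samples can give). That call was lost in 12 of those 23 repeats. Each repeat without an early or late EC sample has fewer splits and so a higher lowest p, and these gave -1.70 to -0.80. The others of the 12 left out an AT2 sample and kept -1.34. The count of losses therefore does not measure how stable the EC difference is. In all 7 early samples, AT2 and EC, miR-101a-3p was below background, as it was in 5 of the 6 late EC samples. With miR-101a-3p at the limit, the early ratios are at least 1.43 to 3.56 in AT2 samples and at least 2.19 to 2.76 in EC samples. With values below the limit raised to it, the differences were -0.78 in AT2 cells (exact permutation test, adjusted p = 0.0762) and -0.56 in EC (exact permutation test, adjusted p = 0.0536). Between the cell types the difference was -0.46 ± 1.04 (SD, n = 9, exact sign-flip permutation test, adjusted p = 0.306).

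miR-101a-3p over miR-26a-5p, the ratio across the families, differed by 0.40 between late and early AT2 samples (exact permutation test, adjusted p = 0.461). It differed by -0.54 between late and early EC samples (exact permutation test, adjusted p = 0.0857) and by -0.38 ± 0.98 between AT2 and EC (SD, n = 9, exact sign-flip permutation test, adjusted p = 0.334).

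**Figure D4:**
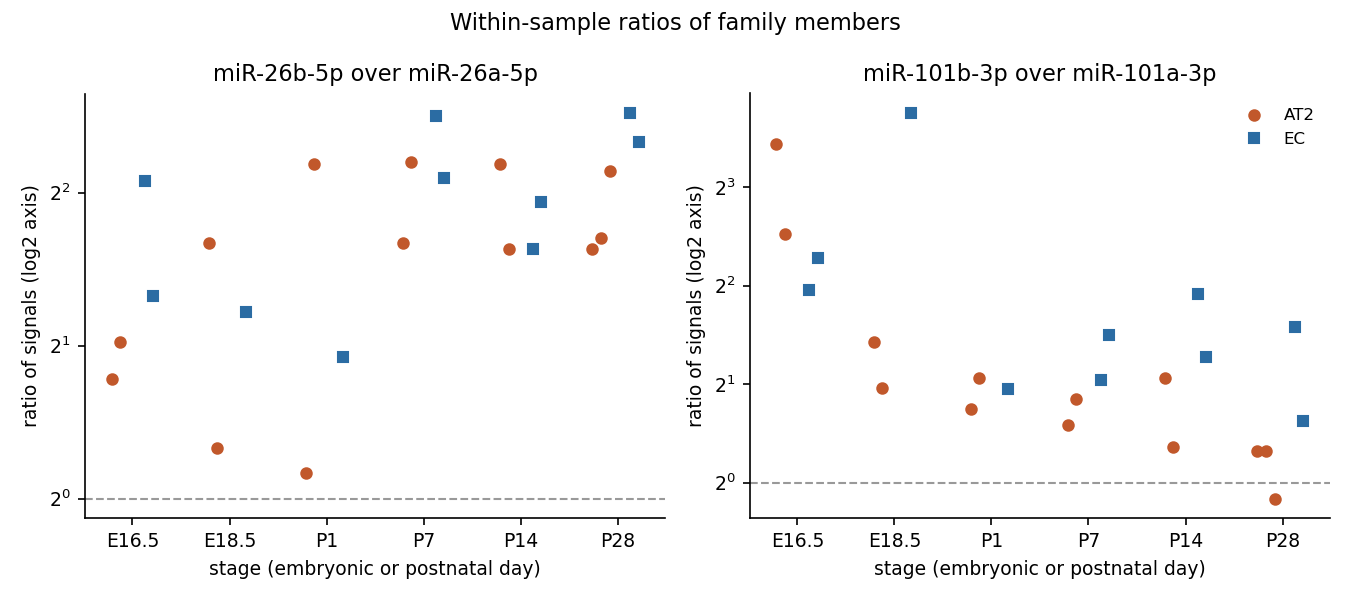
Within-sample ratio of miR-26b-5p over miR-26a-5p (left) and of miR-101b-3p over miR-101a-3p (right) on log2 axes by stage, AT2 as circles at the left of each stage and EC as squares at the right. The left ratio lies between 3.09 and 4.602 in late AT2 samples, and the right ratio falls to between 0.895 and 2.10 there.

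Across the 12 group means of log2(value + 1), which share each sample's factor and background, the members were set against each other and against the other tested probes as a description. miR-26a-5p and miR-26b-5p correlated at r = 0.81, miR-26b-5p and miR-101a-3p at 0.71, miR-26a-5p and miR-101a-3p at 0.67, and miR-101a-3p and miR-101b-3p at 0.22. miR-101b-3p correlated with miR-26a-5p at -0.37 and with miR-26b-5p at -0.24. The probe most like miR-26b-5p was MIMAT0000128 (r = 0.94), and that most like miR-26a-5p was MIMAT0000535 (r = 0.82). For miR-101b-3p it was MIMAT0009424 (r = 0.96) and for miR-101a-3p MIMAT0001081 (r = 0.79), and the files do not pair these 4 identifiers with names.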

How the data were processed

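Expression was read on the nCounter mouse microRNA panel in 23 samples of sorted lung cells, grouped by labelled cell type and stage. The signal values deposited by the authors are counts times 1 factor per sample (0.296 to 7.93), as the values show: all 13861 values not set to 1 came out whole within a tolerance of 0.1 counts, and the other 215 were set to 1. Which normalization and background step gave them is not given in the sources used here. Per the submitters' processing notes, the build is mm10. The 8 low ERCC rows were taken as negative controls, and a probe was tested if its count was above their mean plus 2 SD in at least 2 samples (302 of 602 probes, 248 above it in none).

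The main test was limma 3.58.1 under R 4.3.3 (lmFit, then eBayes with trend) for log2(value + 1), fitting 1 mean for each of 12 groups. P-values were two-sided and Benjamini-Hochberg adjusted over all 302 probes. AT2 minus EC was averaged over stages. Late was P7, P14 and P28, early E16.5 and E18.5. A group with 1 sample is assumed to vary like the other groups. Ratios used exact permutation tests (scipy 1.17.1). The fits were tested on simulated counts. Alternatives changed the scaling, background, filter, pseudocount (10), spread model, title ID block and samples, with edgeR 4.0.16 on recovered counts. The 2 background floors were chosen after seeing the data. The consensus correlation within title IDs was 0.231. The members and lists were chosen with earlier results of these data known. The rule named the 4 members, and for each the most similar probes, of which 1 is printed. Lists of named microRNAs (opposite arms, other reported Ezh2 repressors, cell type markers) were not analysed, since 0 of 602 identifiers could be paired with a name. Exact sign-flip tests paired the 9 title IDs found in both cell types.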

Additional observations from a re-analysis of the deposited data

Results flagged for a closer look

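miR-101a-3p measured 42.1 scaled signal (17 counts) in AT2 E18.5 replicate 2, far above the other 3 early AT2 samples, which measured 5.69, 9.34 and 11.4. The gap to the next value was 0.844 of the range of the 4 samples, above Dixon's critical value for 4 samples. It was 1 of 21 groups of values and ratios examined in this way, and chance flags about 1 in 20. The sample's background limit was 57.2, so the value is below it.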

How the results depend on the processing

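miR-26b-5p kept its late minus early call in both cell types under all alternatives run. Leaving out 1 sample at a time gave 1.63 to 1.89 in AT2 cells and 1.07 to 1.64 in EC. Larger differences came in AT2 cells with a median shift (2.64), edgeR (2.37), quantile scaling (2.26) or background subtracted (1.91). In EC they came with a median shift (2.16), edgeR (2.11), background subtracted (1.88) or quantile scaling (1.83). Total scaling gave 1.601 in AT2 cells and 1.47 in EC. Log2 differences with the following settings changed a call (passed or no longer passed) or a sign, and the cause was not tested. With a median shift, AT2 minus EC was 0.47 for miR-26a-5p (passed), 0.20 for miR-26b-5p and 0.19 for miR-101a-3p (signs turned); late AT2 minus EC was 0.63 for miR-26a-5p (passed), 0.35 for miR-26b-5p (turned) and -0.17 for miR-101b-3p (lost). Late minus early was 0.46 for miR-101b-3p in AT2 (turned), 1.45 for miR-26a-5p (passed) and -0.66 for miR-101b-3p (lost) in EC. The difference of these was 0.26 for miR-26a-5p (turned). EC F-test adjusted p was 0.0204 for miR-26a-5p and 0.0646 for miR-101b-3p, and 2 AT2 steps passed. With total scaling, AT2 minus EC was 0.91 for miR-26a-5p (passed), 0.65 for miR-26b-5p (turned and passed), 0.60 for miR-101a-3p (turned) and -0.0695 for miR-101b-3p (lost). Early, it was 0.61 for miR-26b-5p and 0.30 for miR-101a-3p (turned) and -0.54 for miR-101b-3p (lost). Late, it was 1.02 for miR-26a-5p and 0.97 for miR-101a-3p (passed), and 0.75 for miR-26b-5p and 0.21 for miR-101b-3p (turned). AT2 late minus early was 0.66 for miR-26a-5p and 0.91 for miR-101a-3p (lost). F-test adjusted p was 0.719 for miR-26a-5p and 0.432 for miR-101b-3p in AT2 and 0.167 for miR-26b-5p and 0.153 for miR-101b-3p in EC (lost). With quantile scaling, AT2 minus EC of miR-101a-3p was 0.55 (turned and passed), early 0.28 (turned) and late 0.83 (passed), and late miR-101b-3p was -0.19 (lost). Late minus early was 0.44 for miR-101b-3p in AT2 (turned), and 1.80 for miR-26a-5p and 1.17 for miR-101a-3p in EC (passed). The difference of these was 1.45 for miR-101b-3p (passed), EC F-test adjusted p was 0.00324 for miR-26a-5p, and 1 AT2 and 2 EC steps passed.

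With edgeR, AT2 minus EC was 0.47 for miR-26a-5p (passed), 0.23 for miR-26b-5p and 0.19 for miR-101a-3p (turned), early 0.0489 for miR-26b-5p (turned), late 0.57 for miR-26a-5p (passed), 0.31 for miR-26b-5p (turned) and -0.24 for miR-101b-3p (lost). Late minus early was 0.15 for miR-101b-3p in AT2 (turned), 1.41 for miR-26a-5p (passed) and -0.72 for miR-101b-3p (lost) in EC, and the difference was 0.0411 for miR-26a-5p (turned). EC F-test adjusted p was 0.0294 for miR-26a-5p and 0.109 for miR-101b-3p, and 2 AT2 steps passed. With background subtracted, AT2 minus EC was 0.64 for miR-26a-5p (passed) and 1.21 for miR-101a-3p (turned and passed), early 1.37 for miR-26a-5p (passed) and 0.89 for miR-101a-3p (turned), late 1.81 for miR-101a-3p (passed) and -0.38 for miR-101b-3p (lost). EC late minus early of miR-26a-5p was 2.04 (passed). F-test adjusted p was 0.0606 for miR-26a-5p and 0.0817 for miR-101b-3p in AT2, and 0.00646 for miR-26a-5p and 0.0701 for miR-101b-3p in EC, and 1 EC step passed. The ratio of miR-26b-5p over miR-26a-5p differed by -0.75 (AT2 against EC, passed) and -0.0923 (EC late, turned), that of miR-101b-3p over miR-101a-3p by -1.75 (AT2 against EC, passed) and -3.52 (EC late, lost), and that of miR-101a-3p over miR-26a-5p by 0.60 (AT2 against EC, turned), 2.31 (AT2 late, passed) and 0.55 (EC late, turned). With each sample's limit as a floor, AT2 minus EC was -0.0434 for miR-26a-5p (turned) and -0.76 for miR-101a-3p (passed), early -0.32 (turned) and -1.48 (passed), and late -0.48 for miR-101a-3p (turned). Every early value of miR-101a-3p was then the sample's own limit, so -1.48 compares limits and not the microRNA. The -0.76 and -0.48 rest on limits in most EC samples. Late minus early of miR-101a-3p was 0.28 in AT2 (lost) and -0.72 in EC (turned), the difference for miR-26a-5p was 0.47 (turned), EC F-test adjusted p of miR-101b-3p was 0.0514, and 2 EC steps passed. Late ratios differed by 0.93 (miR-26b-5p over miR-26a-5p, AT2, lost), -0.78 (miR-101b-3p over miR-101a-3p, AT2, lost), -0.56 (the same, EC, lost) and -0.43 (miR-101a-3p over miR-26a-5p, AT2, turned). With a common floor of 95.1, under which most values of the miR-101 members fall, late AT2 minus EC of miR-101b-3p was -0.014, AT2 late minus early was 0.38 for miR-26a-5p and 0 for miR-101a-3p (all lost), and the difference was 0.21 for miR-26a-5p (turned) and 0.65 for miR-101b-3p (passed). AT2 F-test adjusted p was 0.0954 for miR-26a-5p and 1 for miR-101a-3p and miR-101b-3p, and 2 EC steps passed.

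With only the title IDs found in both cell types, AT2 minus EC early was -0.0584 for miR-26a-5p (turned) and -1.04 for miR-101a-3p (passed, from values below background), late 0.0108 for miR-26b-5p (turned) and -0.32 for miR-101b-3p (lost). AT2 late minus early of miR-101b-3p was 0.10 and the difference for miR-26a-5p 0.28 (both turned), and 1 EC step passed. Without the 3 EC samples nearest AT2, the EC late ratio of miR-101b-3p over miR-101a-3p differed by -1.16 (lost, with fewer splits and so a higher lowest p). EC F-test adjusted p of miR-101b-3p was then 0.0575 (lost). With a pseudocount of 10, late AT2 minus EC of miR-101b-3p was -0.53 (lost) and EC late minus early of miR-26a-5p 0.75 (passed). That value was 0.84 with probes above background in 6 samples (passed). AT2 F-test adjusted p without a filter was 0.0537 for miR-101b-3p and 0.0603 for miR-26a-5p, and without a trend 0.0501 for miR-26a-5p (lost). With array weights the difference of late minus early for miR-26a-5p was 0.0138, and with the replicate block on title ID 0.0369 (both turned). In each of pseudocount 10, no filter, array weights and the replicate block, 1 EC step passed. The block changed no other call.

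Leaving out 1 sample at a time gave these ranges where a call or sign changed: AT2 minus EC early -0.19 to 0.41 (miR-26a-5p), -0.98 to -0.23 (miR-26b-5p), -1.63 to -0.14 (miR-101a-3p) and -1.83 to -0.89 (miR-101b-3p); late -0.25 to 0.00375 (miR-26b-5p) and -0.79 to -0.50 (miR-101b-3p). AT2 late minus early was 0.58 to 1.05 (miR-26a-5p), 0.60 to 1.498 (miR-101a-3p) and -0.77 to -0.0784 (miR-101b-3p). EC late minus early was 0.60 to 0.94 (miR-26a-5p) and -1.41 to -0.77 (miR-101b-3p). The difference for miR-26a-5p was -0.26 to 0.22. F-test adjusted p was 0.0183 to 0.104 (miR-26a-5p, AT2), 0.0116 to 0.121 (miR-101b-3p, AT2) and 0.0238 to 0.186 (miR-101b-3p, EC), and 0 to 1 EC steps passed. Late ratios differed by 0.72 to 1.17 (miR-26b-5p over miR-26a-5p, AT2), -1.99 to -1.16 (miR-101b-3p over miR-101a-3p, AT2) and -1.70 to -0.80 (the same, EC). With a sample fewer, the lowest p of these exact tests is higher. Leaving out EC E18.5 replicate 1 removes E18.5 from both cell types in AT2 minus EC, and E16.5 alone then gave -0.98 for miR-26b-5p and -1.63 for miR-101a-3p (both passed, the second from values below background).

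Over all tested probes, AT2 minus EC called 203, against 467 without a filter and 110 with the common floor. EC late minus early called 28 as higher and 84 as lower, against a total of 192 without a filter, 72 with edgeR or the common floor, 57 with total scaling and 54 with each sample's limit. The difference of late minus early called 19, and 5 to 47 under the alternatives. The shares of all tested probes' steps that passed under the alternatives were not counted. Few counts limit miR-101a-3p most: its early values were all below background.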
